A study of Mus musculus with 35 samples.

Results

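The comparison set mouse ES cells after 168 h of doxycycline (Dox) against the same cells before Dox (0 h), to ask how far the whole transcriptome had changed by the end of GATA6 induction and which transcripts were the most abundant in each state. It took 6 of the 35 RNA-seq libraries of the study, 3 at 0 h and 3 at 168 h. The deposited table held 44853 genes, of which 14233 averaged 1 TPM or more in either group and were tested. TPM is the share of a gene among all transcripts of its library, corrected for transcript length and scaled to a fixed total, so levels of different genes can be compared.

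The cells were KH2 ES cells (C57BL/6 x 129/Sv) carrying a Dox-inducible Gata6 cassette, and the 0 h libraries carried that cassette too, uninduced. Both groups were grown in DMEM with 15% FCS and LIF on gelatin with mitomycin C-inactivated MEF feeders, which are embryonic fibroblasts and were depleted before lysis by letting them attach to untreated plastic, and the 168 h group also received 1 µg/mL Dox. The cassette encodes GATA6 with a 3×HA tag, so the value of Gata6 adds transgene and endogenous transcripts. The study derived 2 clones of the inducible line, and the labels do not say from which of them these libraries came. The study's methods call the replicates independent without saying whether they were separate cultures, so p-values measure the spread between libraries. That spread was estimated over all 23 libraries of the induction series. XEN cells (X10 line, CD1, no LIF), a line of extra-embryonic endoderm, gave 2 of these libraries. Their values enter the estimate of the spread and are otherwise quoted only as a reference.

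As background, GATA6 is the transcription factor that directs cells of the blastocyst inner cell mass to the primitive endoderm (PrE), while OCT4, SOX2 and NANOG hold the pluripotent state of the epiblast and of ES cells. PrE gives rise to the parietal endoderm, which secretes the thick basement membrane of laminin and type IV collagen known as Reichert's membrane, and to the visceral endoderm of the yolk sac, which takes up maternal proteins by endocytosis and secretes plasma and lipid-carrying proteins.

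Between 12888 and 13037 genes reached 1 TPM in the 0 h libraries and between 12441 and 12736 in the 168 h libraries, and the number of reads behind the TPM is unknown. Across tested genes, Pearson r on log2(TPM + 1) was 0.984 to 0.989 within 0 h, 0.983 to 0.989 within 168 h and 0.768 to 0.780 between the groups, as a description, since genes are not independent replicates. In each group the library numbered 3 stood apart from the other 2. At 168 h, 118 genes were more than 1 log2 unit above both other libraries in replicate 3 and 98 more than 1 below, against 45 to 51 and 25 to 43 for replicates 1 and 2. At 0 h the corresponding numbers were 89 and 69 for replicate 3 and 44 to 60 and 26 to 32 for the other libraries.

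After 168 h of Dox, 3396 genes were higher and 2491 were lower than at 0 h (limma, adjusted p under 0.05 and a log2 change above 1 or under -1), which is 23.9% and 17.5% of the genes tested. These percentages are the background against which the counts of each gene group are read below. The libraries of the groups did not overlap in 11242 of the 14233 genes tested, so a lack of overlap was the common case. Without both libraries numbered 3 the counts were 3265 and 2582. The shift concerned a large part of the RNA as well as many genes. Genes called higher held 5.81% ± 0.0884 of all TPM at 0 h and 30.3% ± 0.252 at 168 h, and genes called lower held 19.6% ± 0.222 and 5.95% ± 0.165 (SD, n = 3 each). Between 30.2% and 31.7% of the TPM of a library was distributed differently in each of the 9 pairs of a 0 h and a 168 h library, against 2.63% to 4.61% for pairs within 0 h and 4.25% to 6.23% within 168 h.

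Because TPM are shares of a fixed total, the level of every gene depends on the abundant ones. The median log2 change over all tested genes was 0.11 as deposited and -0.06 after median-of-ratios rescaling, which gave 2870 higher calls and 2926 lower ones. Higher genes made up 57.7% of all calls as deposited and 49.5% after rescaling. Changes smaller than this shift have no firm direction. In bulk RNA, fewer cells that express a gene and less RNA per cell cannot be told apart, which holds for all the decreases below.

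Some genes went from the edge of detection to high levels or the reverse. In total 118 genes (0.829% of those tested) were under 1 TPM in every 0 h library and at 10 TPM or more in every 168 h library, and 129 (0.906%) showed the reverse. Of the first set, 13 reached at least 100 TPM in every 168 h library. They included the transcription factors Gata6, Gata4, Sox17 and Sox7, the endocytic receptor Cubn, the proteoglycan core protein Srgn, the heparan sulfate sulfotransferase Hs3st1 and the RNA export factor relative Nxf7. The others, named here after their values were seen, were Hkdc1 (195 TPM at 168 h), Cyp26a1, which degrades retinoic acid (199 TPM), Aqp8 (251 TPM), the BMP antagonist Nog (117 TPM) and Gata6os (138 TPM), an antisense transcript at the Gata6 locus. In the other direction 4 genes fell from at least 100 to under 1 TPM, namely Trh, Krt42, Mymx and Gm28625.

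**Figure D1:**
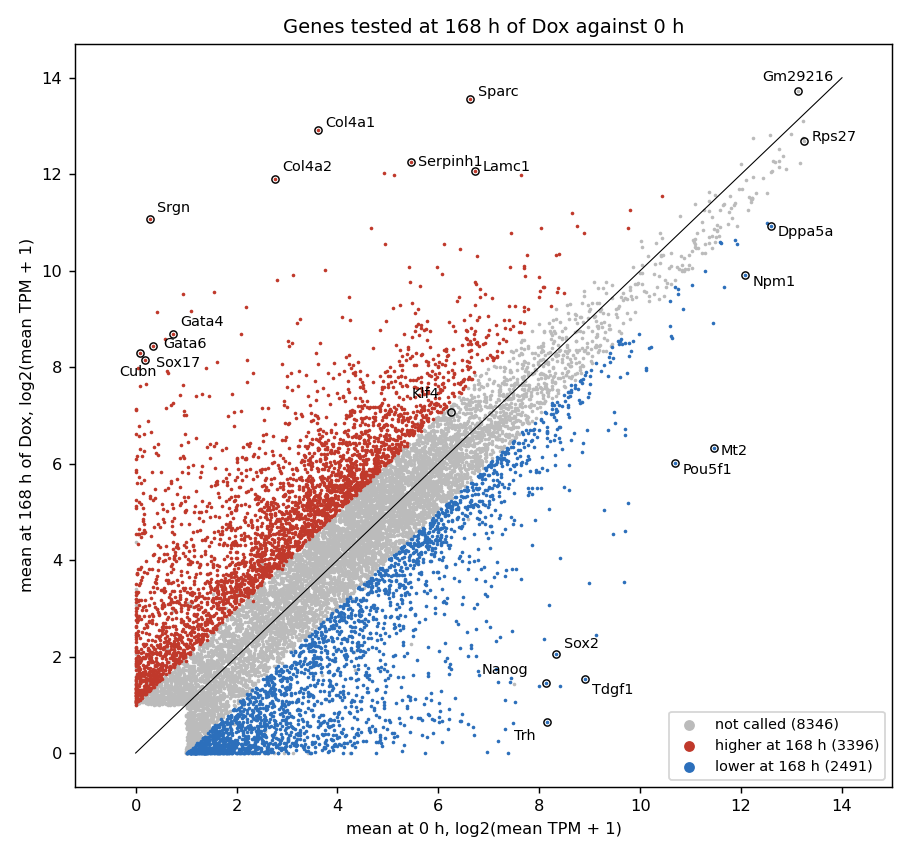
Mean level of each of the 14233 tested genes at 0 h (x axis) and at 168 h of Dox (y axis), both as log2(mean TPM + 1), with n = 3 libraries per group. Red marks the 3396 genes called higher and blue the 2491 called lower, grey the 8346 not called, and the line marks equal levels; Sparc, Col4a1, Col4a2, Serpinh1 and Srgn lie farthest above the line among the abundant genes, and Pou5f1, Mt2, Nanog, Sox2 and Tdgf1 far below it.

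The regulators of PrE were described first, starting with the induced gene. Gata6 was at 0.193, 0.223 and 0.375 TPM at 0 h and at 369.6, 317 and 346 TPM at 168 h. The groups did not overlap, and the log2 change was 8.09 ± 0.09 (SE; adjusted p = 3.72e-22, limma). The mean of the XEN libraries was 346 TPM. Gata4, the related factor that follows GATA6 in PrE, was at 0.599, 0.954 and 0.436 TPM before and at 424, 378 and 438 TPM after Dox, a log2 change of 7.97 ± 0.12 (SE; adjusted p = 4.97e-20, limma). Sox17, a SOX factor of all endoderm, was at 0.102, 0.132 and 0.172 TPM and then at 295, 298 and 257 TPM. All 3 168 h libraries were above 250 TPM while no 0 h library reached 1 TPM, and the log2 change was 7.96 ± 0.18 (SE; adjusted p = 1.5e-17, limma).

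Of 10 PrE transcription factors listed, 8 passed the filter on low values and 7 of these rose, none fell, and the median log2 change was 6.44 against 0.11 over all genes tested. Sox7 rose from 0.667 ± 0.221 to 152 ± 14.5 TPM and Foxa2, a forkhead factor of endoderm, from 0.230 ± 0.138 to 100.3 ± 12.9 TPM (SD, n = 3). Hnf4a, a nuclear receptor of visceral endoderm and liver, stayed the lowest of the 7 that rose, at 8.86, 9.49 and 5.47 TPM in the 168 h libraries against at most 0.0609 TPM at 0 h. Its log2 change was 3.08 ± 0.29 (SE; adjusted p = 9.39e-09, limma). Of the listed relatives Foxa1, Foxa3 and Gata5, only Foxa3 was tested, and it was not called. Foxa3 was at 1.28, 1.34 and 1.23 TPM and at 0.722, 1.08 and 0.771 TPM, a log2 change of -0.30 ± 0.18 (SE; adjusted p = 0.138, limma), and Foxa1 and Gata5 stayed under the filter with means of 0.102 and 0.0406 TPM at 168 h.

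**Figure D2:**
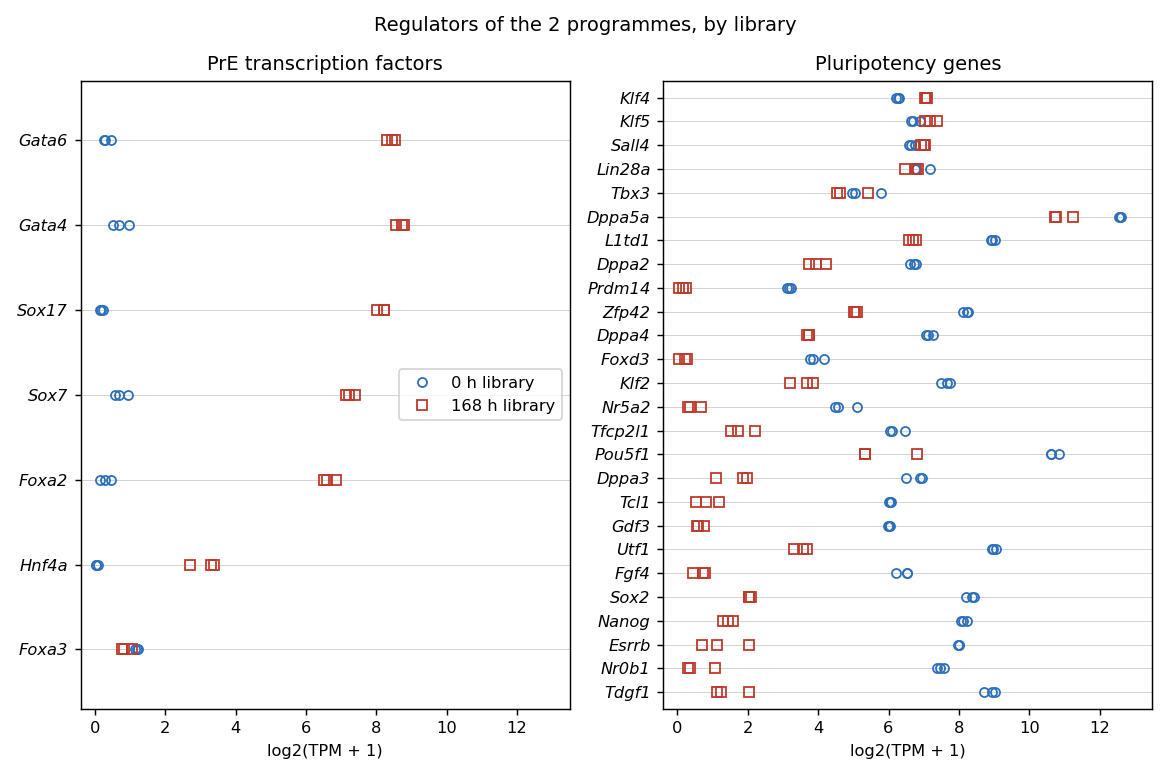
TPM of 7 of the tested PrE transcription factors (left) and of the pluripotency genes (right) in every library, as log2(TPM + 1) on the x axis, with circles for the 3 libraries at 0 h and squares for the 3 at 168 h. In the left panel 6 of 7 genes are separated by at least 2 log2 units and Foxa3 is not; in the right panel Klf4, Klf5, Sall4, Lin28a and Tbx3 are within 1 log2 unit of their mean at 0 h and the other 21 genes are lower at 168 h.

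Pluripotency genes moved in the opposite direction. Of 26 listed and tested, 21 were lower at 168 h, against 17.5% of all genes, and none was higher; the median log2 change was -4.17. The 0 h libraries had the pattern of ES cells, with Pou5f1, which encodes OCT4, at 1572, 1558 and 1833 TPM. In the 168 h libraries Pou5f1 was at 39.1, 39.1 and 112 TPM. Replicate 3 thus kept a higher level than the others, and the group difference was still -4.87 ± 0.25 (SE; adjusted p = 1.8e-12, limma). Sox2 was at 341, 332 and 296 TPM and fell to 3.10, 3.12 and 3.31 TPM, with a log2 change of -6.28 ± 0.20 (SE; adjusted p = 1.09e-15, limma). Nanog was at 268, 278 and 298 TPM and fell to 1.48, 1.73 and 1.98 TPM, with a log2 change of -6.70 ± 0.22 (SE; adjusted p = 1.32e-15, limma). Both groups were tight for Sox2 and Nanog, and all 168 h libraries lay under 4 TPM.

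The promoter of Nanog is shown because it carries the site at which OCT4 and SOX2 bind side by side. One of 2 overlapping RefSeq windows of the gene (GRCm38.p6, plus strand, chr6:122707239-122707538, 250 bases before to 50 after the annotated start) is printed in lower case, with the octamer part TTTGCAT, 1 base of any kind and the SOX part ACAAT in capitals. This composite, searched on both strands, occurred in 8 of 32851 promoter windows of this length (0.0244%), 2 of which are those of Nanog. It begins 75 bases before the annotated start site in the window shown and 151 bases before the annotated start site in the other.
Nanog: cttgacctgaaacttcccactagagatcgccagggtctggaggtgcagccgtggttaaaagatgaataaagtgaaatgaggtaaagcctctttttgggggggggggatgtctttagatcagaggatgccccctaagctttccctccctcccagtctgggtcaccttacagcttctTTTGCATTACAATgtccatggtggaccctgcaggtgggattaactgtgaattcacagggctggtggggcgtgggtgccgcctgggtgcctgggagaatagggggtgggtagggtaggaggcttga

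Esrrb, an orphan nuclear receptor of the ES cell network, fell from 253 ± 4.44 to 1.62 ± 1.28 TPM, and Nr0b1, a nuclear receptor lacking a DNA-binding domain, from 176 ± 11.2 to 0.545 ± 0.486 TPM (SD, n = 3). Tdgf1, the Nodal co-receptor Cripto, fell from 477 ± 50.8 to 1.88 ± 1.06 TPM, a log2 change of -7.43 ± 0.31 (SE; adjusted p = 6.64e-14, limma), the second largest fall of the comparison among genes averaging 5 TPM or more. Klf2 fell from 199 ± 18.9 to 11.1 ± 2.67 TPM and Tfcp2l1 from 73.6 ± 12.1 to 2.58 ± 0.906 TPM, while 2 other factors of the naive state did not. Klf4 was at 77.7, 73.7 and 75.5 TPM and at 130.3, 134 and 136 TPM. Its libraries did not overlap and its log2 change of 0.81 ± 0.18 (SE; adjusted p = 0.000405, limma) was upward but below the fold threshold. Klf5 was at 103, 98.9 and 119 TPM and at 129, 143 and 165 TPM, with a log2 change of 0.44 ± 0.09 (SE; adjusted p = 0.000135, limma). Sall4 changed by 0.34 ± 0.10 (SE; adjusted p = 0.00373, limma), Tbx3 by -0.42 ± 0.19 (SE; adjusted p = 0.0492, limma) and the RNA-binding protein Lin28a by -0.20 ± 0.12 (SE; adjusted p = 0.135, limma). The libraries of Tbx3 and Lin28a overlapped between groups, and none of these 5 genes was called.

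Several pluripotency transcripts were lower but remained well above the edge of detection. Dppa5a, a KH-domain RNA-binding protein of ES cells, was at 6037, 6287 and 6165 TPM and then at 1741, 1706 and 2427 TPM. It fell by 1.67 on the log2 scale (SE 0.16; with limma, adjusted p = 1.69e-08), and it still had a mean of 1958 TPM at 168 h, against 0.677 TPM in XEN cells. L1td1, an RNA-binding protein, fell from 495 ± 23.1 to 103 ± 6.83 TPM and Zfp42, which encodes REX1, from 292 ± 13.6 to 32.2 ± 1.07 TPM (SD, n = 3). The residual level of Zfp42 was similar in the libraries, at 31.1, 32.1 and 33.3 TPM. In 18 of the 26 genes replicate 3 was the highest of the 168 h libraries, and it was also the highest of the 0 h libraries in 16. Without 168 h replicate 3, and without both libraries numbered 3, 21 members were again lower.

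The list of transcripts that mark cells on the way from the naive to the primed epiblast summed to 242 TPM at 0 h and 86.1 TPM at 168 h on average. Of 10 tested genes of that list 5 were lower, 1 was higher and 4 were not called, with a median log2 change of -0.95. Otx2 fell from 8.99 ± 1.62 to 0.579 ± 0.240 TPM, Pou3f1 from 4.86 ± 1.22 to 0.636 ± 0.293 TPM, and the de novo DNA methyltransferases Dnmt3a and Dnmt3b by 1.01 and 1.26 on the log2 scale, the first of them just past the fold threshold. Sox4 was the member that rose, from 4.51 ± 0.604 to 14.8 ± 3.28 TPM (SD, n = 3). Fgf5, the classical epiblast marker, stayed under 1 TPM in both groups.

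The largest rise among called genes averaging 5 TPM or more was that of Srgn (chromosome 10, 62493833 to 62527451 on mm10, minus strand), which encodes serglycin, the core protein of an intracellular proteoglycan. It was at 0.264, 0.294 and 0.0913 TPM at 0 h and at 2371, 1959 and 2101 TPM at 168 h. No 0 h library was above 0.3 TPM and no 168 h library below 1900 TPM, a log2 change of 10.78 ± 0.31 (SE; adjusted p = 5.21e-16, limma). The ratio of the means, 9898, rests on a denominator near the edge of detection. Hs3st1, which adds the 3-O-sulfate to heparan sulfate, was at 0.579, 0.365 and 0.0812 TPM and at 543, 535 and 607 TPM, a log2 change of 8.73 ± 0.21 (SE; adjusted p = 3.24e-17, limma). Glipr1 rose from 0.914 ± 0.488 to 733 ± 87.1 TPM and Nxf7, on the X chromosome, from 0.491 ± 0.206 to 383 ± 2.89 TPM (SD, n = 3). Pth1r, the receptor for parathyroid hormone-related protein and a known gene of parietal endoderm, was at 2.50, 2.36 and 0.994 TPM and at 855, 676 and 739 TPM, a log2 change of 8.04 ± 0.22 (SE; adjusted p = 1.83e-16, limma). The other 5 of the 10 largest rises were Col4a1, Col4a2, Cubn, Gata6 and Dab2. XEN libraries also held these transcripts, with a mean of 609 TPM for Srgn, 429 TPM for Hs3st1 and 491 TPM for Pth1r.

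The largest such fall was that of Trh (chromosome 6, 92242061 to 92244650), the precursor of thyrotropin-releasing hormone, an abundant transcript of these ES cells. It was at 265, 287 and 296 TPM at 0 h and at 0.285, 0.619 and 0.760 TPM at 168 h, and its log2 change was -7.52 ± 0.24 (SE; adjusted p = 1.18e-15, limma). Rasgrp2, an exchange factor for the GTPase RAP1, was at 316, 316 and 379.6 TPM and at 2.63, 0.873 and 1.32 TPM, with a log2 change of -7.07 ± 0.21 (SE; adjusted p = 4.14e-16, limma). Krt42, a type I keratin, fell from 143 ± 4.23 to 0.193 ± 0.139 TPM and Mymx, a membrane protein best known from myoblast fusion, from 159 ± 12.2 to 0.406 ± 0.280 TPM (SD, n = 3). Besides Tdgf1, Nr0b1, Esrrb and Nanog, the 10 largest falls held 2 unnamed genes. Gm28625 was at 248, 134 and 112 TPM at 0 h and listed at 0 in every 168 h library, and Gm46332 fell from 124 ± 47.3 to 0.0102 ± 0.0102 TPM (SD, n = 3). No fold is given for Gm28625, since its level at 168 h is listed as 0.

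The most abundant transcripts of the ES state were those of the translation machinery. The 20 most abundant genes at 0 h held 14.6%, 14.7% and 14.3% of all TPM in the 0 h libraries, and the same genes held 11.0% ± 0.321 (SD, n = 3) at 168 h. Among them were 13 ribosomal protein genes, led by Rps27 (9765 ± 539 TPM), Rpl41 (9637 ± 227 TPM) and Rplp1 (9232 ± 75.9 TPM; SD, n = 3), and the elongation factor Eef1a1. The only pluripotency gene among them was Dppa5a, in place 15, with Ptma, which encodes prothymosin alpha, in place 18.

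At 168 h the 20 most abundant genes held 12.8%, 13.4% and 13.0% of all TPM, and the same genes held 12.5% ± 0.185 at 0 h (SD, n = 3). Ribosomal protein genes were still 10 of these 20, and Eef1a1 took place 5. The transcripts among the 20 that were rare at 0 h encode proteins of the extracellular matrix and its assembly. Sparc, a collagen-binding secreted protein, took place 2, with 11826, 11706 and 12469.7 TPM at 168 h against 77.8, 63.6 and 153 TPM at 0 h. The type IV collagen chain Col4a1 took place 4, with 7905, 7559 and 7654 TPM against 10.4, 11.2 and 12.0 TPM. The collagen chaperone Serpinh1 (HSP47) took place 15, with 5150.2, 4599 and 4858 TPM against 40.3, 36.7 and 51.3 TPM. None of these 3 genes had overlapping groups, which was also the common case among all genes tested. Of the 100 most abundant genes of each group 75 were shared, and of the 500 most abundant 316.

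Both lists also held 4 unprocessed pseudogenes at 24.61 Mb of chromosome 1, Gm10925, Gm29216, Gm28438 and Gm10222. They share at least 97.2% of their 25-base words with the mitochondrial genes for ATP6, CO1, ND3 and ND4L, and no mitochondrially encoded gene had a row in the table analysed here. Reads of mitochondrial transcripts and of these copies cannot be told apart, so their levels are not read as expression of the nuclear copies. Gm29216 was at 9407, 8977 and 8503 TPM at 0 h and at 13553, 13974 and 12857 TPM at 168 h, a log2 change of 0.59 ± 0.07 (SE; adjusted p = 1.12e-07, limma), whereas Gm28438 changed by -0.44 ± 0.12 (SE; adjusted p = 0.00215, limma) and Gm10925 by -0.12 ± 0.06 (SE; adjusted p = 0.0742, limma). The table held 7 copies of mitochondrial genes, 5 at this locus and 2 of lower similarity on chromosome 2, which together held 3.40% ± 0.0622 of TPM at 0 h and 3.74% ± 0.0302 at 168 h (SD, n = 3).

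**Figure D3:**
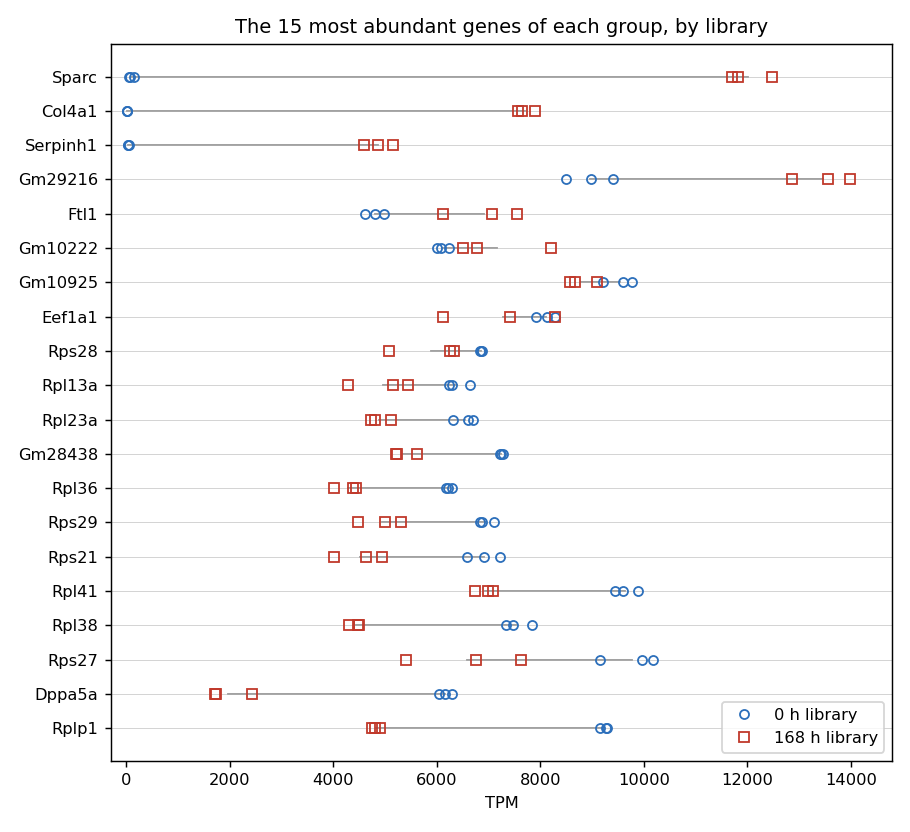
TPM (x axis, linear) of the 15 most abundant genes at 0 h and the 15 at 168 h in every library, sorted by the gain of mean TPM, with circles for 0 h, squares for 168 h and a line between the group means. Sparc, Col4a1 and Serpinh1 go from under 160 TPM to 4599 TPM or more, while most ribosomal protein genes and Dppa5a move to lower values.

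In absolute terms, the 10 largest gains of TPM were those of Sparc, Col4a1, Serpinh1, Gm29216, Lamc1, Lamb1, Lama1, Fabp3, Col4a2 and Srgn. Fabp3, a cytosolic fatty acid-binding protein, was at 232, 233 and 132 TPM and at 4171, 3893 and 4074 TPM, a log2 change of 4.39 ± 0.17 (SE; adjusted p = 2.53e-14, limma). It was close to the laminin chains in level at 168 h. Of 31 genes that averaged 1000 TPM or more at 168 h and not at 0 h, 30 were called higher, and besides the matrix genes they included lysosomal proteases and endoplasmic reticulum (ER) chaperones described below. Tmsb4x, the exception, crossed that level with a log2 change of 0.19 ± 0.12 (SE; with limma, adjusted p = 0.163).

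The largest losses of TPM fell on ribosomal proteins (Rplp1, Rps27, Rpl38, Rpl41 and Rps18), Dppa5a and 4 further genes. Ptma was at 5572, 5805 and 6209 TPM and at 2170.4, 1888 and 2059 TPM, a log2 change of -1.52 ± 0.08 (SE; adjusted p = 1.74e-12, limma). Npm1, the nucleolar protein nucleophosmin, was at 4169, 4320.4 and 4469 TPM and at 1054, 909 and 931 TPM, a log2 change of -2.16 ± 0.09 (SE; adjusted p = 2.6e-14, limma). Hsp90aa1, a cytosolic chaperone, was at 3243, 3366 and 3145 TPM and at 808, 751 and 872 TPM, a log2 change of -2.01 ± 0.09 (SE; adjusted p = 2.36e-13, limma). Mt2, a metal-binding metallothionein, fell farther than these, from 2844, 2675 and 2918 TPM to 72.8, 77.1 and 89.1 TPM, a log2 change of -5.13 ± 0.22 (SE; adjusted p = 8.31e-14, limma).

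Of 37 genes at 1000 TPM or more only at 0 h, 19 were called lower, among them Pou5f1, Npm1, Hsp90aa1 and Mt2. The genes in this paragraph were named after their values were seen. Set, a histone chaperone, fell from 2773 ± 151 to 480.4 ± 44.9 TPM, a log2 change of -2.53 ± 0.15 (SE), and Ncl, the nucleolar protein nucleolin, fell from 1578 ± 41.6 to 386 ± 39.5 TPM. Trim28, the co-repressor KAP1, fell from 1112 ± 152 to 252 ± 25.3 TPM (SD, n = 3). Sod1, which removes superoxide, fell from 1841 ± 119 to 592 ± 41.0 TPM, Prdx1, a peroxiredoxin, from 1195 ± 64.8 to 342 ± 42.5 TPM and Hspb1, a small heat shock protein, from 1161 ± 104 to 336 ± 17.6 TPM (SD, n = 3). Among the genes at that level only at 168 h, Cst3, the secreted protease inhibitor cystatin C, rose from 85.3 ± 2.43 to 1388 ± 49.6 TPM, a log2 change of 4.01 ± 0.10 (SE), and Ccn2, a matricellular growth factor, from 41.7 ± 9.14 to 1076 ± 221 TPM. The surface glycoprotein Bsg rose from 430.2 ± 18.6 to 1956 ± 86.6 TPM and the tetraspanin Cd9 from 215 ± 20.9 to 1284 ± 71.9 TPM (SD, n = 3).

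Ribosomal protein transcripts held a smaller share of the RNA at 168 h, with a small difference for each gene. The 76 cytosolic ribosomal proteins of the list, which leaves out Rpl41, summed to 264838, 269377 and 262928 TPM at 0 h, 26.6% of all TPM on average, and to 174710.0, 185102 and 170330.0 TPM at 168 h, 17.7% on average. The median log2 change was -0.65, and only 4 members passed the fold threshold, all lower, namely Rpl3, Rpl12, Rps20 and Rpl10a. Rpl3 fell from 2082 ± 93.2 to 828 ± 119 TPM, a log2 change of -1.34 ± 0.07 (SE; adjusted p = 2.53e-12, limma), and Rpl12 from 2481 ± 118 to 1020.3 ± 87.2 TPM (SD, n = 3). The count of 4 depended on scaling and on single libraries, with 16 lower after rescaling, 7 without 168 h replicate 2 and 2 without both libraries numbered 3, while no setting called a member higher. Replicate 3 was the lowest of the 168 h libraries for 60 of the 76 genes.

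Basement membrane genes gained more TPM in sum than any other list examined. The 17 genes of the list summed to 1060.0, 1011 and 1154 TPM at 0 h and to 38742, 37953 and 39119.8 TPM at 168 h, 0.107% and 3.86% of all TPM. All were tested, 11 rose and 3 fell, against 23.9% and 17.5% over all genes, and the median log2 change was 3.05. The chains of the embryonic laminin trimer, alpha 1, beta 1 and gamma 1, reached like levels. Lama1 was at 27.6, 34.9 and 38.6 TPM and at 4106, 3983 and 4030.3 TPM, with a log2 change of 6.88 ± 0.13 (SE; adjusted p = 1.06e-18, limma). Lamb1 was at 29.5, 31.1 and 27.8 TPM and at 4126, 4146 and 4213 TPM, with a log2 change of 7.10 ± 0.13 (SE; adjusted p = 8.11e-19, limma). Lamc1 started higher, at 98.9, 98.3 and 119 TPM, and was at 4349, 4042 and 4450.1 TPM after Dox, with a log2 change of 5.34 ± 0.11 (SE; adjusted p = 4.55e-18, limma). The 3 chains thus lay between 3983 and 4450 TPM in every 168 h library, whereas at 0 h Lamc1 exceeded the other chains in every library.

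Col4a1 and Col4a2 encode the alpha 1 and alpha 2 chains of the major type IV collagen heterotrimer. Col4a1 was at the levels given above, with a log2 change of 9.30 ± 0.13 (SE; adjusted p = 3.36e-20, limma). Col4a2 was at 5.45, 4.04 and 7.88 TPM and at 3898, 3862 and 3789 TPM, with a log2 change of 9.19 ± 0.17 (SE; adjusted p = 1.06e-18, limma). In XEN cells the means were 1143 TPM and 517 TPM. The genes lie head to head on chromosome 8 and their promoter windows, shown because both genes rose together from one locus, share 78 bases. The RefSeq windows (GRCm38.p6, 250 bases before to 50 after each start) are chr8:11312777-11313076 on the minus strand for Col4a1 and chr8:11312555-11312854 on the plus strand for Col4a2, each printed in the direction of its gene with the shared bases in capitals. The capitals of one are the reverse complement of the other.
Col4a1: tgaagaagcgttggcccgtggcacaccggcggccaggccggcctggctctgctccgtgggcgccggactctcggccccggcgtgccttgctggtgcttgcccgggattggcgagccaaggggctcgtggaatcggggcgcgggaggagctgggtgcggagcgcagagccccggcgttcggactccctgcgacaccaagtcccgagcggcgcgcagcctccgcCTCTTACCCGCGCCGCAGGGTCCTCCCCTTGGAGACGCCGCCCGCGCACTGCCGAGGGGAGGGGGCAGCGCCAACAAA
Col4a2: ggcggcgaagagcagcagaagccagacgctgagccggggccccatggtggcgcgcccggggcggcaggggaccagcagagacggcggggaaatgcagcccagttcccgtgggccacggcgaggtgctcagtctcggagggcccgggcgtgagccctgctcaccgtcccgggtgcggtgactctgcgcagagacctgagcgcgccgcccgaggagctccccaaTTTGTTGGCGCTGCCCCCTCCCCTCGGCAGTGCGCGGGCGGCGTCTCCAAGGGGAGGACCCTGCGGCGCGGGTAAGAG

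Other basement membrane members rose as well. Nid1 and Nid2, which encode nidogens that link laminin to collagen IV, rose from 43.5 ± 4.47 to 639 ± 28.9 TPM and from 104 ± 9.86 to 628 ± 116 TPM, and Hspg2, which encodes perlecan, from 83.7 ± 4.86 to 705 ± 85.3 TPM (SD, n = 3). The peroxidase Pxdn, which crosslinks collagen IV, rose from 3.99 ± 0.286 to 233 ± 14.9 TPM, a log2 change of 5.55 ± 0.13 (SE; adjusted p = 2.93e-17, limma). The 3 members that fell were Col18a1, Lama5 and Fn1. Col18a1, which encodes collagen XVIII, was at 148, 143 and 129 TPM and at 4.18, 3.73 and 4.15 TPM, with a log2 change of -4.81 ± 0.10 (SE; adjusted p = 2.24e-18, limma). Lama5, the laminin alpha 5 chain, fell from 62.4 ± 10.9 to 12.4 ± 3.59 TPM, and fibronectin, Fn1, from 238 ± 20.7 to 104 ± 9.54 TPM (SD, n = 3).

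Enzymes and chaperones that modify and fold collagen rose with it. Of 20 tested genes 17 rose and none fell, with a median log2 change of 3.31, and the list summed to 816, 795 and 884 TPM at 0 h and to 14794, 13496 and 14048 TPM at 168 h. The prolyl 4-hydroxylase subunits P4ha1 and P4ha2 were at 13.7, 13.7 and 9.81 TPM and 7.50, 5.85 and 9.67 TPM at 0 h. At 168 h they were at 1068, 1049 and 975 TPM and 944, 842 and 1107 TPM, with log2 changes of 6.28 ± 0.17 and 6.81 ± 0.14 (SE). The lysyl hydroxylase Plod2 rose from 24.3 ± 6.41 to 1900.4 ± 49.7 TPM and the lysyl oxidase relative Loxl2 from 3.57 ± 0.631 to 609.6 ± 27.1 TPM. For Serpinh1 the log2 change was 6.81 ± 0.12 (SE; adjusted p = 4.25e-19, limma). Loxl1, Loxl3 and P4ha3, the members without a call, had log2 changes of 0.76, -0.64 and 0.95, and all were under 11 TPM in every library of both groups.

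The general secretory machinery rose as well, by less per gene. Of 30 genes of ER translocation, ER folding and vesicle transport 26 rose and none fell, with a median log2 change of 1.93. Kdelr3, a receptor that returns ER proteins from the Golgi, was at 19.5, 19.3 and 14.8 TPM and at 509, 489 and 508 TPM, a log2 change of 4.75 ± 0.09 (SE; adjusted p = 6.34e-19, limma). Its relatives Kdelr2 and Kdelr1 changed by 3.16 ± 0.09 and 2.27 ± 0.10 (SE). The chaperones Calr and Pdia3 rose from 403 ± 54.5 to 2351 ± 208 TPM and from 263 ± 25.3 to 1883 ± 107 TPM, and the COPII coat protein Sec24d from 17.9 ± 2.41 to 130.1 ± 3.78 TPM (SD, n = 3). Sec61b, Sec61g, Ssr2 and Sec23b were not called and changed by between 0.01 and 0.67 on the log2 scale.

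**Figure D4:**
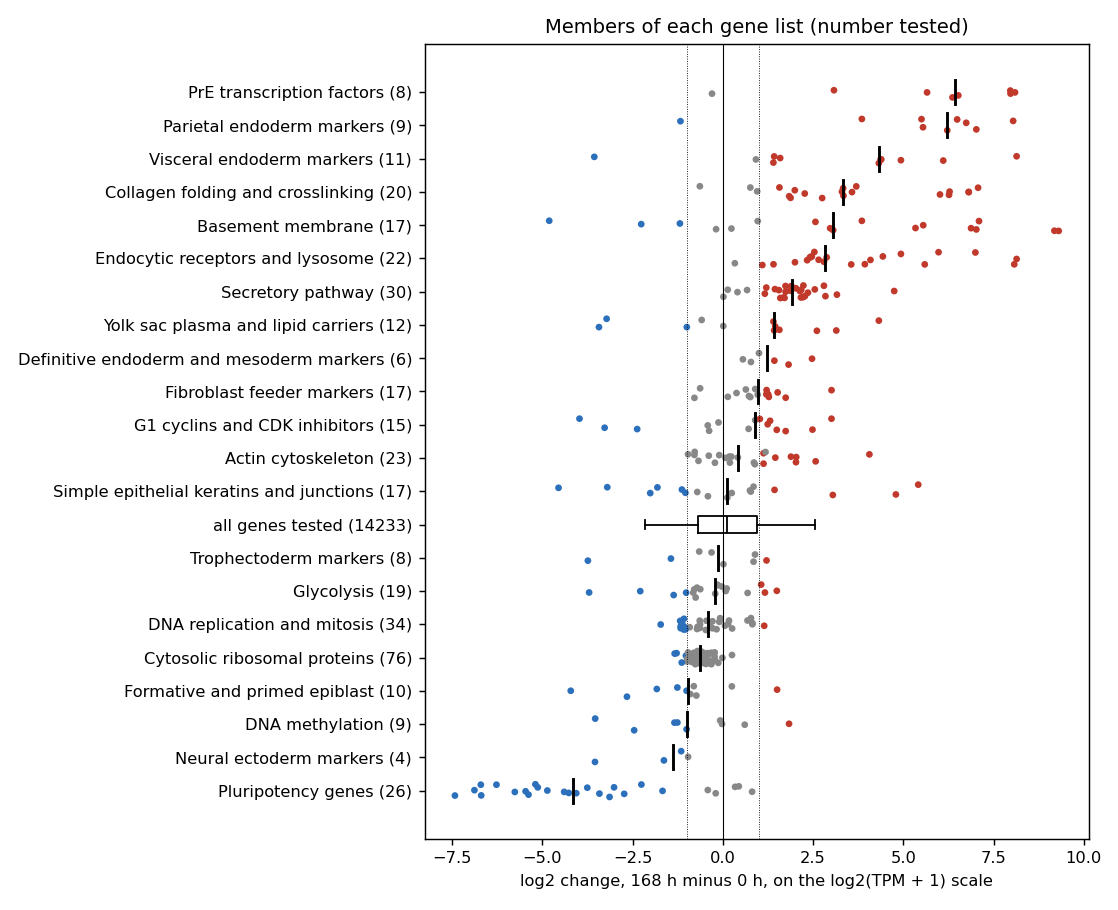
log2 change from 0 h to 168 h (x axis) of every tested member of each gene list, with the number tested in brackets and lists sorted by their median (black bar). Red points were called higher, blue lower and grey not called, dotted lines mark the fold threshold, and the box for all 14233 genes shows quartiles with whiskers from the 5th to the 95th percentile; PrE, matrix and endocytic genes lie to the right, and pluripotency genes to the left.

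Endocytic receptors and lysosomal proteins formed the group with the highest share of rising members. Of 22 genes 21 rose and none fell, with a median log2 change of 2.84, and the sum went from 1009, 991 and 981 TPM to 11909.7, 11544 and 9243 TPM. Cubn, the receptor cubilin, was at 0.0812, 0.0812 and 0.0406 TPM and at 387, 359 and 194 TPM. Its log2 change was 8.14 ± 0.27 (SE; adjusted p = 1.98e-15, limma), although replicate 3 lay well under the other 168 h libraries. Amn, the membrane partner of cubilin, rose from 3.27 ± 0.785 to 135 ± 49.5 TPM and Lrp2, the receptor megalin, from 3.61 ± 1.12 to 284 ± 28.5 TPM. Lrp2 did not share the low value of Cubn in replicate 3, with 266, 268 and 316 TPM at 168 h.

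Dab2, the clathrin adaptor of these receptors, was at 0.985, 1.24 and 1.17 TPM at 0 h and at 632, 564 and 525 TPM at 168 h, a log2 change of 8.07 ± 0.23 (SE; adjusted p = 2.09e-16, limma). One of its RefSeq promoter windows (GRCm38.p6, chr15:6299539-6299838, plus strand) holds the letters AGATAA, a form of the motif bound by GATA factors. They are shown in capitals, on the minus strand (TTATCT as printed), beginning 14 bases after the annotated start, and the other window of Dab2 holds no such letters. Searched on both strands, AGATAA occurred in 11.2% of all 32851 windows. Among the 10 largest rises, 2 of the 8 genes with a window held it, Dab2 and Nxf7. The first value counts windows and the second counts genes, some with several windows, so they cannot be compared.
Dab2: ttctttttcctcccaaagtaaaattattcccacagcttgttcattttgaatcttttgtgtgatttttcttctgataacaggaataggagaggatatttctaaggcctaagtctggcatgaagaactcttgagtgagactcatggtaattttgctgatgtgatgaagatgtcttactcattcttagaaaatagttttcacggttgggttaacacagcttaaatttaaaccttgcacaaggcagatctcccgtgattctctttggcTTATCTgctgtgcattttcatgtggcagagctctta

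Lysosomal proteases reached high levels. The cathepsin Ctsl was at 75.4, 68.7 and 61.1 TPM and at 1772, 1552 and 1206 TPM, a log2 change of 4.43 ± 0.16 (SE; adjusted p = 5.66e-15, limma), and the asparaginyl protease Lgmn was at 29.8, 31.6 and 27.4 TPM and at 1688, 1702 and 1111 TPM, a log2 change of 5.59 ± 0.20 (SE; adjusted p = 4.49e-15, limma). Ctsh, a cathepsin, went from 0.508, 0.568 and 0.507 TPM to 368, 293 and 67.2 TPM, so that it rose in all libraries but by less in replicate 3. Ctsd, Cd63 and Lamp1, general lysosomal proteins, rose from 169.7 ± 16.7 to 1072 ± 97.5 TPM, from 108 ± 23.2 to 1266 ± 148 TPM and from 206 ± 10.8 to 1099 ± 129 TPM (SD, n = 3). In 19 of the 22 genes replicate 3 was the lowest of the 168 h libraries.

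Markers of both derivatives of PrE were present at 168 h. All 9 parietal endoderm markers, which include Sparc, Nid1 and Pth1r from above, were tested, of which 8 rose and 1 fell, with a median log2 change of 6.22. Thbd, the thrombin receptor thrombomodulin, was at 1.14, 0.700 and 2.04 TPM and at 173, 131 and 198 TPM, and Plat, tissue plasminogen activator, at 0.579, 0.508 and 1.65 TPM and at 215, 168 and 211 TPM. Both rose in every library, with log2 changes of 6.22 ± 0.22 and 6.74 ± 0.30 (SE). Stra6, a transporter for retinol, rose from 0.0542 ± 0.0586 to 94.4 ± 14.7 TPM and Snai1, a zinc finger factor, from 3.59 ± 0.695 to 206 ± 16.0 TPM, while Fst, an activin-binding protein, rose from 7.14 ± 2.17 to 372 ± 58.6 TPM (SD, n = 3). The member that fell was Cd24a, a surface glycoprotein, from 30.2 ± 7.15 to 12.8 ± 3.46 TPM, a log2 change of -1.18 ± 0.18 (SE; adjusted p = 5.72e-06, limma). Without 168 h replicate 3 the change of Cd24a was -0.95 and below the fold threshold.

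Of 12 visceral endoderm markers, which include Cubn and Amn from above, 11 were tested, 9 rose and 1 fell, with a median log2 change of 4.32. Without the filter on low values the median over 12 members was 2.95. Several members differed widely between the 168 h libraries. Cited1, a transcriptional co-activator, was at 1.96, 1.45 and 2.76 TPM at 0 h and at 393, 366 and 60.6 TPM at 168 h, and Ihh, a hedgehog ligand, at 0.112, 0.0609 and 0.213 TPM and at 28.4, 28.5 and 14.1 TPM. The Wnt antagonist Dkk1 was even across libraries, at 20.3, 23.5 and 19.9 TPM after at most 0.132 TPM at 0 h. Rhox5, a homeobox gene, rose from 206 ± 62.3 to 604 ± 36.2 TPM and Hhex, another homeobox gene, changed by 0.92 ± 0.22 (SE; adjusted p = 0.00103, limma). Lefty1, an antagonist of Nodal, fell from 41.5, 37.9 and 8.15 TPM to 1.23, 1.08 and 0.973 TPM, with the lowest 0 h level again in replicate 3. Cer1 did not pass the filter on low values. Without 168 h replicate 3 again 9 members rose and 1 fell, with a median of 4.41.

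Genes for secreted plasma and lipid-carrying proteins of the yolk sac stayed low and uneven. Of 18 listed genes 12 were tested, 7 rose and 3 fell, with a median log2 change of 1.41. The filter on low values admits genes that are high in a single group, and without it the median over 16 members was 0.15. Ttr, the carrier transthyretin, was listed at 0 in every 0 h library and was at 52.4, 44.1 and 2.31 TPM at 168 h. Rbp4, the retinol carrier, was at 1.08, 1.42 and 1.51 TPM and at 30.2, 38.8 and 1.29 TPM, so that replicate 3 stayed at the level of the 0 h libraries. Afp, alpha-fetoprotein, was at 0, 0.284 and 0.0304 TPM and at 4.48, 2.91 and 0.182 TPM, and its groups overlapped. Apoe, by far the most abundant member, was at 792, 725 and 674 TPM and at 633, 793 and 226 TPM, and was not called, with a log2 change of -0.59 ± 0.33 (SE; adjusted p = 0.108, limma). Apoa2 and Trf fell from 26.4 ± 9.30 to 1.51 ± 0.841 TPM and from 13.7 ± 3.20 to 0.619 ± 0.537 TPM (SD, n = 3), and the third member that fell was Apoc2, whose change lay at the fold threshold. Without 168 h replicate 3 again 7 members rose while 2 fell, and the median was 2.12. The count of 7 fell to 4 when 168 h replicate 1 was left out and to 4 when only the 6 libraries of the comparison entered the fit. Alb and the fibrinogen chains Fga, Fgb and Fgg stayed under the filter.

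The unevenness lay mostly in 168 h replicate 3. Its rank was not counted over all tested genes, so no background share stands beside the counts given here and for other lists. That library was also the lowest of its group for 60 of the 76 ribosomal proteins. Afp, Ttr and Apoa1 belong to both the yolk sac and the visceral endoderm list. In 168 h replicate 3, 11 of the 12 tested yolk sac genes and 10 of the 11 visceral endoderm markers had the lowest value of the group, whereas among the 9 parietal endoderm markers it was the lowest in 2 and the highest in 2. Fibroblast feeder markers showed the reverse, with replicate 3 the highest at 168 h in 16 of 17 and the highest at 0 h in all 17. Their sum was 126, 89.3 and 218 TPM at 0 h and 203, 203 and 432 TPM at 168 h. All 17 were tested and 8 were called higher, with a median log2 change of 0.96, and the count of 8 became 3 without 168 h replicate 3 and 3 without 0 h replicate 2. Thy1, a surface protein of fibroblasts, was at 4.63, 4.75 and 23.8 TPM at 0 h and at 1.88, 1.20 and 33.0 TPM at 168 h. Col3a1, the type III collagen chain, was at 2.91, 2.94 and 10.5 TPM and at 37.7, 32.7 and 70.1 TPM, with a log2 change of 3.01 ± 0.49 (SE; adjusted p = 1.74e-05, limma). Feeders had been depleted before lysis, and the part of remaining feeder RNA in the differences between libraries was not tested. The feeder markers together amounted to at most 432 TPM in any library, a sum of the listed genes that does not measure the amount of feeder RNA. Whether feeder RNA had a part in the rises of matrix genes was not tested.

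**Figure D5:**
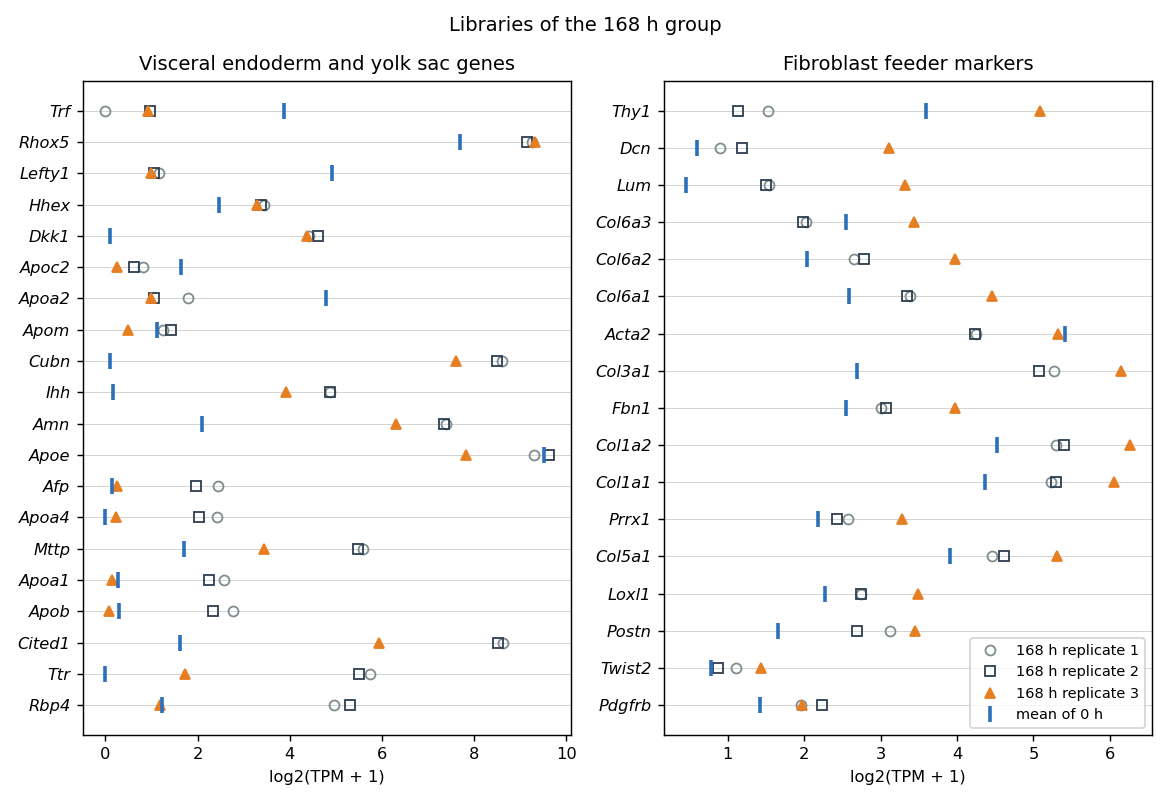
Level of the tested visceral endoderm and yolk sac genes (left) and of the fibroblast feeder markers (right) in the 3 libraries at 168 h, as log2(TPM + 1) on the x axis, with the mean of the 3 libraries at 0 h as a vertical tick. Replicate 3 (filled triangles) lies under the other libraries for most genes of the left panel, such as Rbp4, Ttr and Cited1, and above them for most genes of the right panel.

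Epithelial genes moved in both directions. Of 17 tested genes 4 rose and 6 fell, and the median log2 change was 0.12. It had no firm direction, since it was -0.06 after rescaling, 0.65 without 168 h replicate 3, -0.28 without 168 h replicate 1, -0.35 without 168 h replicate 2 and -0.03 without 0 h replicate 3. Krt8 and Krt18, the keratin pair of simple epithelia, rose from 9.09, 7.01 and 6.63 TPM to 353, 373 and 359 TPM and from 7.13, 9.02 and 6.30 TPM to 229.9, 283 and 192 TPM. Their log2 changes were 5.41 ± 0.10 and 4.79 ± 0.15 (SE; with limma, adjusted p = 8.34e-19 and 1.27e-15). The desmosome protein Dsp and Krt19 rose too. Cdh1, which encodes E-cadherin, was at 153, 152 and 120.3 TPM and at 15.2, 16.5 and 11.9 TPM, a log2 change of -3.21 ± 0.13 (SE; adjusted p = 2.49e-14, limma), and the tight junction protein Cldn4 at 99.7, 107 and 77.2 TPM and at 2.36, 3.46 and 3.36 TPM. Epcam fell less than either of these, from 188, 184 and 162 TPM to 80.0, 83.4 and 77.4 TPM.

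Of 23 genes of the actin cytoskeleton 8 rose and none fell, with a median log2 change of 0.41. Tpm4, a tropomyosin, was at 47.1, 42.0 and 57.0 TPM and at 766, 832 and 868 TPM, a log2 change of 4.06 ± 0.11 (SE; adjusted p = 1.25e-16, limma). Tagln2 and Cnn2, actin-binding proteins, rose from 77.1 ± 2.21 to 464 ± 46.7 TPM and from 32.5 ± 1.49 to 136 ± 11.8 TPM, and Myh9, the heavy chain of non-muscle myosin, from 55.1 ± 4.93 to 227 ± 21.3 TPM (SD, n = 3). Actg1 rose from 1373 ± 145 to 2989 ± 188 TPM while Actb, the other cytoplasmic actin, changed by 0.24 ± 0.09 (SE; adjusted p = 0.0263, limma). The change of Actg1 was 0.94 and below the fold threshold after rescaling. Replicate 3 was the highest library for 18 of these 23 genes at 0 h and for 16 at 168 h, as it was for the feeder markers. The part of that library in the rises was not tested beyond leaving it out. Without 168 h replicate 3, 8 members were again higher and 1 was lower. Without both libraries numbered 3, 8 were higher and 0 lower.

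Genes of DNA replication and mitosis mostly stayed within the fold threshold, with a small shift downward, and 8 of the 9 that fell were replication genes. Of 34 genes 9 were lower (26.5%) and 1 higher (2.94%), against 17.5% and 23.9% of all genes. The median log2 change was -0.40, against 0.11 over all genes tested. Mcm2, Gins1, Pole and Pcna, all of the replication fork, fell by 1.17, 1.18, 1.17 and 1.08 on the log2 scale, and Pola1 by 1.72. Pcna was at 403, 422 and 429 TPM and at 200.5, 190.1 and 201 TPM. Of the mitotic genes, the checkpoint kinase relative Bub1b fell and Cenpe rose. Cdk1, the mitotic kinase, was not called, at 356, 354 and 337 TPM and at 393, 387 and 378 TPM. The 0.15 log2 change of Cdk1 turned to -0.04 after rescaling. Cenpe, a kinetochore motor, passed by a narrow margin, with a log2 change of 1.14 ± 0.09 (SE; adjusted p = 1.48e-09, limma), and no member of the list was higher after rescaling or without both libraries numbered 3.

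The G1 regulators changed more. Of 15 cyclins, kinases and inhibitors of that phase 7 rose and 3 fell, with a median log2 change of 0.89. Ccnd1, cyclin D1, was at 82.9, 80.3 and 104 TPM and at 7.65, 6.87 and 10.5 TPM, and its partner kinase Cdk6 at 33.6, 26.9 and 27.6 TPM and at 0.366, 0.863 and 1.78 TPM. Both fell, with log2 changes of -3.28 ± 0.33 and -3.98 ± 0.27 (SE), and cyclin E1, Ccne1, fell from 220.0 ± 4.24 to 41.6 ± 3.29 TPM. Cyclin D2, Ccnd2, moved the other way, from 9.60, 6.90 and 21.8 TPM to 68.4, 77.9 and 59.8 TPM. The CDK inhibitor Cdkn1a, which encodes p21, was at 41.2, 37.1 and 44.5 TPM and at 289, 303 and 432 TPM, a log2 change of 3.01 ± 0.18 (SE; adjusted p = 1.58e-11, limma). Of the other inhibitors Cdkn1b, Cdkn2b, Cdkn2c and Cdkn2d also rose, and Cdkn1c was not called, with a log2 change of -0.12 ± 0.25 (SE; adjusted p = 0.665, limma). Cdk4, the most abundant member, changed by -0.42.

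The enzymes of DNA methylation and its removal fell in 5 of 9 cases and rose in 1. One of the 5, Dnmt3a, lay at the fold threshold, and 4 were lower when 0 h replicate 1, 0 h replicate 2, 168 h replicate 1 or 168 h replicate 2 was left out. Tet1, which oxidises 5-methylcytosine, was at 161, 175 and 147 TPM and at 12.8, 12.7 and 13.2 TPM, a log2 change of -3.54 ± 0.17 (SE; adjusted p = 2.78e-13, limma), and Tet2 fell from 53.9 ± 3.03 to 9.01 ± 1.18 TPM. Tet3, the third enzyme of this family, rose from 2.05 ± 0.434 to 9.80 ± 0.276 TPM (SD, n = 3). Uhrf1, which brings the maintenance methyltransferase to replicated DNA, fell from 196 ± 6.32 to 77.0 ± 7.55 TPM, while that enzyme, Dnmt1, changed by -0.03 ± 0.07 (SE; adjusted p = 0.740, limma). Dnmt3l, the cofactor without catalytic activity, was at 431, 433 and 482 TPM and at 393, 399 and 489.7 TPM and its groups overlapped. In XEN cells Dnmt3l had a mean of 1.15 TPM.

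Glycolytic genes did not move as a group, with 3 of 19 higher, 4 lower and a median log2 change of -0.21. Pfkp, an isoform of phosphofructokinase, was at 105, 111 and 95.9 TPM and at 6.12, 6.97 and 8.07 TPM, while its paralog Pfkl was at 109, 105 and 76.7 TPM and at 280.0, 244 and 294 TPM. Their log2 changes were -3.71 ± 0.35 and 1.49 ± 0.15 (SE; with limma, adjusted p = 1.08e-08 and 1.81e-08). Pdk1, a kinase that inhibits pyruvate dehydrogenase, fell from 70.2 ± 4.29 to 13.7 ± 2.63 TPM (SD, n = 3). Gapdh and Pkm, the most abundant members, changed by -0.72 and -0.82 and were not called. The count of 4 became 2 without 0 h replicate 1 or without 0 h replicate 2, and the count of 3 became 1 after rescaling.

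Most markers of other lineages stayed low at 168 h. Of 12 definitive endoderm and mesoderm markers 6 passed the filter and 3 rose, Kdr from 0.349 ± 0.173 to 6.92 ± 3.67 TPM, Twist1 from 3.53 ± 1.22 to 14.6 ± 0.976 TPM and Foxf1, which was listed at 0 in every 0 h library, to 1.39, 1.88 and 1.81 TPM. T, Mixl1, Mesp1, Gsc and Cxcr4 had means under 1 TPM in both groups, and T was listed at 0 in every 168 h library. Of 9 neural markers 4 were tested and 3 fell, Olig2 from 12.4 ± 0.607 to 0.152 ± 0.0730 TPM, Map2 from 5.39 ± 0.764 to 1.86 ± 0.187 TPM and Tubb3 from 44.4, 40.2 and 42.5 TPM to 8.85, 7.23 and 32.5 TPM. Of 11 trophectoderm markers 8 were tested, 1 rose and 2 fell. Tead4 rose from 16.3 ± 0.699 to 39.0 ± 1.43 TPM, Tfap2c fell from 38.3 ± 6.80 to 1.97 ± 0.784 TPM and Ascl2 fell from 3.11 ± 0.665 to 0.501 ± 0.108 TPM (SD, n = 3), while Cdx2 and Elf5 were under 1 TPM in both groups. Esx1 passed as well when 168 h replicate 3 was left out. The 9 two-cell-like markers found in the table had no member with a mean of 1 TPM, and summed to at most 2.51 TPM in any library.

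By gene type, 3183 of 12584 protein-coding genes were higher (25.3%) and 2134 lower (17.0%). Long non-coding RNAs had the reverse balance, with 119 of 737 higher (16.1%) and 193 lower (26.2%). Among pseudogenes 57 of 629 were higher (9.06%) and 111 lower (17.6%). These shares were counted on TPM as deposited and not after rescaling, which moved higher genes from 57.7% to 49.5% of all calls.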

How the data were processed

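RNA was measured by stranded poly(A) RNA-seq, and the authors deposited gene-level TPM for 23 induction libraries. Per the study's methods and the labels, reads were aligned with STAR to mm10 and quantified strand-specifically with RSEM, and the conversion to TPM followed removal of outliers found by PCA, whose kind is not stated. Tool versions and the gene annotation are not given in the sources used here. TPM keep no read depth, so no counting interval can be given. Precision rests on the 3 libraries per group and on a spread estimated over the 23 libraries. The table of siRNA libraries was not used here. Of 44915 rows, 60 symbols stood on more than 1 row and only the row of highest average was used.

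TPM were tested as log2(TPM + 1) with limma 3.58.1 in R 4.3.3, with 1 coefficient for each of the 8 groups over the 23 libraries, trend and robust moderation, and Benjamini-Hochberg adjustment over the 14233 genes that averaged 1 TPM or more at 0 h or 168 h. Fold changes on that scale understate the change of low genes. A gene was called at an adjusted p under 0.05 and a log2 change beyond 1, the thresholds of the study, whose count test could not be run on TPM. The script was tested on simulated data. Named are, with a mean of at least 5 TPM, the 10 largest rises and falls, the 15 most abundant genes of each group, the 10 largest gains and losses of TPM, and the leading and most abundant members of each list. Further list members are named where 5 or fewer were called or where a contrast with a relative was described, and were chosen after their values were seen. Some members that enter the counts are not reported here by name. The comparison, its members and the gene lists were chosen with earlier results of these data known. Alternatives covered scaling, filters, pseudocount, thresholds, the libraries fitted and each replicate left out. Promoter windows are from RefSeq (GRCm38.p6), and 73.8% of the tested genes had one, so motif shares were not compared between called groups. Gene positions and types are from GENCODE M21, matched by symbol for 98.1% of tested genes.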

Additional observations from a re-analysis of the deposited data

How the results depend on the processing

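The counts of 3396 genes higher and 2491 lower became 2870 and 2926 after median-of-ratios rescaling, 2890 and 1763 with a filter of 5 TPM, 3863 and 2955 with a pseudocount of 0.1, and 6079 and 5019 without a fold minimum. Leaving out each replicate in turn gave 3322 to 3483 higher and 2471 to 2558 lower. With the replicate block the counts were 3398 and 2491. The deviations of same-numbered libraries correlated at 0.071, 0.063 and 0.103, against -0.098 to 0.043 for other numbers. Each of the 6 libraries correlated best with its own number, a hint from the data and not from the design. The labels name no pairs, and the main fit did not treat the numbers as pairs. With the block the SE of Thy1 went from 1.14 to 0.274, that of Col6a3 from 0.524 to 0.277 and that of Plet1 from 0.222 to 0.229. The share of TPM in the 20 most abundant genes was 14.5% to 14.7% at 0 h and 12.9% to 13.2% at 168 h with 1 replicate left out, 14.1% and 14.2% without ribosomal protein genes, and 13.8% and 11.7% without the mitochondrial copies, an alternative added after seeing the data. Leaving out mitochondrially encoded genes was not run, since none had a row.

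Over all gene lists and settings, 565 counts stayed within 1.5 times, 10 were larger and 13 smaller. A pseudocount of 0.1 gave 8 formative genes lower, 6 definitive endoderm and mesoderm markers higher and 3 trophectoderm markers higher. The filter of 5 TPM gave 3 yolk sac genes higher and 1 trophectoderm marker lower, and fitting only the 6 libraries gave 4 yolk sac genes higher. Rescaling gave 0 replication and mitosis genes higher, 1 glycolytic gene higher and 16 ribosomal proteins lower. Without both libraries numbered 3, also added after seeing the data, 0 replication and mitosis genes were higher, 2 ribosomal proteins lower, 1 definitive endoderm and mesoderm marker lower and 2 trophectoderm markers higher. With 1 replicate left out, yolk sac genes higher were 4 to 7, glycolytic genes lower 2 to 4, ribosomal proteins lower 3 to 7, actin genes lower 0 to 1, parietal endoderm markers lower 0 to 1, definitive endoderm and mesoderm markers lower 0 to 1, trophectoderm markers higher 1 to 2 and feeder markers higher 3 to 12. Of the values of single named genes, 2513 kept direction and call, 13 reversed, 29 newly passed the thresholds and 27 no longer did. None of the reversed genes was called: the log2 change of Lin28a was 0.0471 without both libraries numbered 3, that of Cdk1 was -0.0391, of Tmsb10 -0.113, of Plet1 -0.128 and of Col6a3 -0.0150 after rescaling, and with 1 replicate left out Plet1 ranged from -0.160 to 0.189, Col6a3 from -0.343 to 0.645 and Thy1 from -1.88 to 0.0919. The cause was not tested.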
